A study of Homo sapiens with 6 samples.

Results

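The S100 genes described here are 10 members of the family of small calcium-binding proteins, *S100A2*, *S100A4*, *S100A6*, *S100A7*, *S100A8*, *S100A9*, *S100A10*, *S100A11*, *S100A14* and *S100P*. They were taken by symbol, each from the array feature that names this gene alone (10 features in all, 1 per gene), out of 138745 features. CaSki cells, an established line from a cervical cancer that carries HPV16, were kept in medium with charcoal-stripped serum and received either 10 nM calcitriol, the hormonal form of vitamin D, or 0.1% ethanol as vehicle for 24 h. Vehicle and calcitriol are represented by 3 arrays each (Clariom D), and every array holds RNA pooled from repeated experiments, so the spread between arrays measures the spread between pools and may be largely technical. The results concern 1 cell line, 1 dose and 1 time. Genes are given as log2 signals, and a difference is the mean of calcitriol minus the mean of vehicle.

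S100 proteins carry a pair of EF-hand loops, mostly work as dimers, and bind partner proteins when calcium opens a hydrophobic surface. *S100A8* and *S100A9* encode the subunits of calprotectin, an antimicrobial and inflammatory complex that squamous epithelium and myeloid cells make, while *S100A10* is the exception of the family whose protein holds its active shape without calcium and pairs with annexin A2. Most of these genes lie in a dense cluster on the long arm of chromosome 1 beside the genes of the cornified envelope. Calcitriol acts through the vitamin D receptor, a nuclear receptor that binds DNA with the retinoid X receptor.

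*S100A9* was higher with calcitriol at an unadjusted p under 0.05 and a fold of at least 1.5, and it was the only one of the 10 genes to pass. Its partner *S100A8* had a positive difference, and *S100A10* was lower on all 3 calcitriol arrays than on any vehicle array, but neither had an unadjusted p under 0.05. The share of all features called higher by the same rule was 1.43%, of 17579 protein-coding genes 0.353%, and of the 8229 protein-coding genes brighter than the negative controls 0.219%. In the opposite direction 0 of the 10 genes were called, against 1.56% of all features, 2.87% of protein-coding genes and 4.31% of the brighter ones. After Benjamini-Hochberg adjustment over all features 0 of the 10 passed in limma, with adjusted p-values from 0.915 to 0.985, and 0.000721% of all features did, which is the single feature of *CYP24A1*.

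Promoters of 3 genes are shown because the results turn on them: *S100A9*, which was called, *S100A8*, whose protein is its partner, and *S100A10*, which had the most negative difference. They run from 250 bases before to 50 bases after the start of transcription (RefSeq, build GRCh38.p14, each read on the strand of its gene, 5′ to 3′), and capitals mark the TATA box core TATAAA.
*S100A9*, chr1:153357604-153357903, plus strand: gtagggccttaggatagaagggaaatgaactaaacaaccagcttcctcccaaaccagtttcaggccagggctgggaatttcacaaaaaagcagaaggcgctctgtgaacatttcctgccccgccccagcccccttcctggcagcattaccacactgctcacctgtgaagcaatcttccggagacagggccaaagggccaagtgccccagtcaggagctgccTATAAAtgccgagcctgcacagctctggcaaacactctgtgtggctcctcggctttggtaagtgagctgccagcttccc
*S100A8*, chr1:153391024-153391323, minus strand, 1 of 3 starts listed: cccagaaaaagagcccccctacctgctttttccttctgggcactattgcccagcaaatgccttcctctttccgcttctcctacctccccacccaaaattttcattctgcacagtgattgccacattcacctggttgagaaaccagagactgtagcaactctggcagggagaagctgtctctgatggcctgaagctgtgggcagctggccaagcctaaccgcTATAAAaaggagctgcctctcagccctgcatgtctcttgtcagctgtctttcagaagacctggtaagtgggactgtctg
*S100A10*, chr1:151993810-151994109, minus strand: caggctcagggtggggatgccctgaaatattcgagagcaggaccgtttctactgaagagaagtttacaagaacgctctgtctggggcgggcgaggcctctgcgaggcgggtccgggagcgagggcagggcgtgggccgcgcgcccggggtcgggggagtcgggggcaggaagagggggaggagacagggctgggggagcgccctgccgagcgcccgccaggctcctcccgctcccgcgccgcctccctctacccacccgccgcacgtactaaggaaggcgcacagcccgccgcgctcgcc
The core begins 29 bases before the start in both *S100A9* and *S100A8*, and the *S100A10* window holds none on either strand. All 10 genes had an entry, 13 windows in all. A TATAAA on the gene's strand that begins 40 to 20 bases before a start was found for 5 of the 10 genes, *S100A9*, *S100A8*, *S100A7*, *S100A4* and *S100P*, and in 2.3% of 35116 RefSeq windows of the same length. The count is by gene, with up to 3 windows each, and the share is by window. The other 5, *S100A10*, *S100A11*, *S100A6*, *S100A2* and *S100A14*, had no TATAAA there. Only these exact letters were searched, and the windows of *S100A6* and *S100A14* hold the near match TATAAG in that stretch. The *S100A10* window was rich in G and C (71.7%), as were those of *S100A6* (69.3%) and *S100A11* (65.3%), against 55.7% for *S100A9* and 52.3% for the *S100A8* window shown (median of all windows 58.7%). The nuclear receptor half-sites AGGTCA and GGTTCA were searched on both strands. AGGTCA occurred in the windows of *S100A7* and *S100A4* and in 13.8% of all windows, while GGTTCA occurred in 0 of the 10 genes and in 8.62% of all windows. Direct repeats of either half-site spaced by 3 bases, the arrangement that the vitamin D receptor favours, occurred in 0 of the 10 genes and in 0.0057% of all windows each. Only exact repeats of the same half-site were searched, not mixed or variant forms. At so low a share a count of 0 in these windows carries no information. Of the remaining motifs searched, the AP-1 motif TGANTCA was found for *S100A2* alone (7.71% of all windows) and the C/EBP motif TTGCNNAA for *S100A11* alone (10.5% of all windows). These windows are short, and the occurrence or lack of such letters does not show whether a factor binds.

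The level and the reading range of each feature come first. The cutoff for signal over background was 6.32, the 95th percentile of the means of 612 negative control features. Of the 10 genes, 6 lay above that level on all 6 arrays (*S100A2*, *S100A6*, *S100A8*, *S100A9*, *S100A10* and *S100A11*) and 4 lay below it on all 6 (*S100A4*, *S100A7*, *S100A14* and *S100P*), with mean signals of 4.36 to 5.17 where the median of the negative controls was 4.44. For these 4 genes a difference between the groups cannot be told from background. At the other end the table has a ceiling of 19.93, which 26 to 29 features reached on every array except calcitriol replicate 1, whose highest value was 19.90. *S100A10* lay 0.81 and *S100A11* 0.42 below the ceiling on average, so both features had little room above them. The feature of *CYP24A1*, the enzyme that breaks calcitriol down, rose from 4.99 ± 0.74 to 12.59 ± 0.82 (SD, n = 3 pools, adjusted p = 0.0137 from limma). Its 3 vehicle arrays lay below the cutoff, so the rise is given as at least 6.27 on the log2 scale, the calcitriol mean over the cutoff, and arrays correlated with each other at 0.981 to 0.984.

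**Figure D1:**
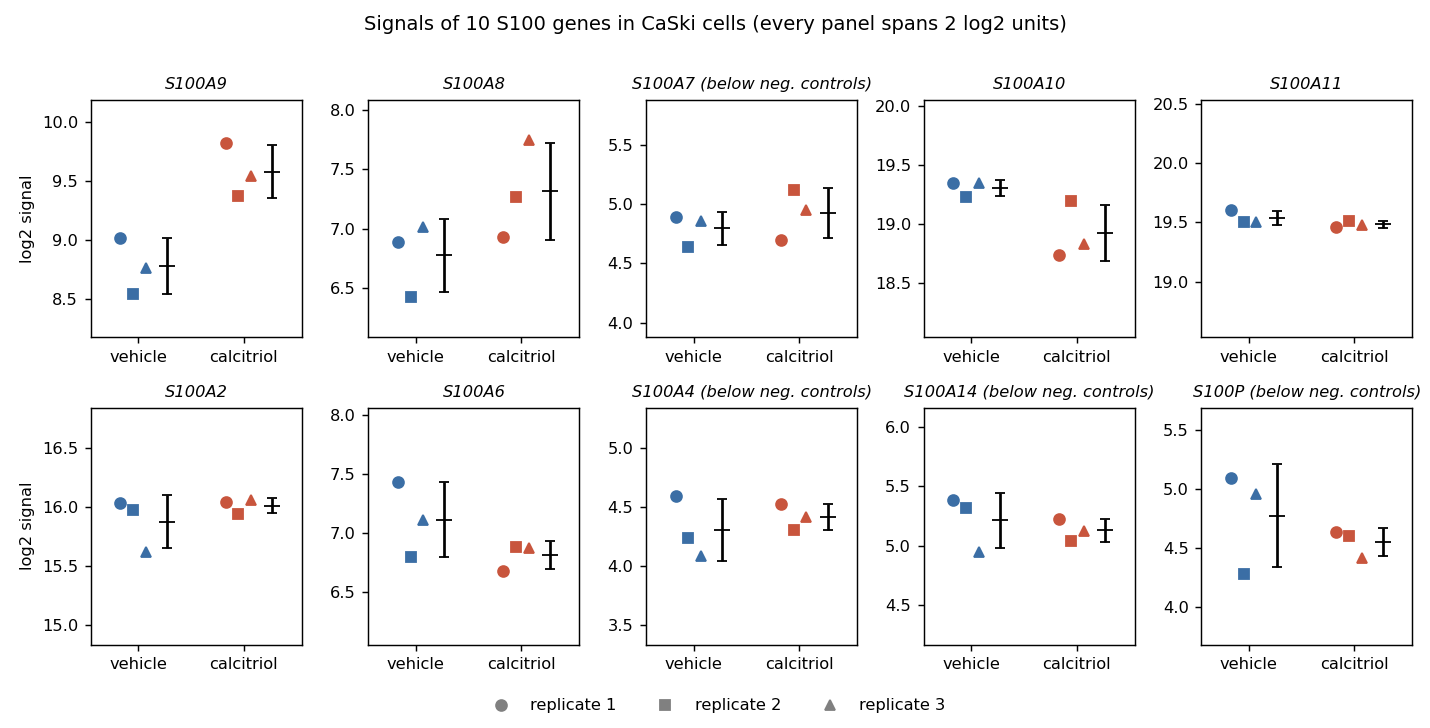
Log2 signal of each of the 10 S100 genes on the 3 vehicle and 3 calcitriol arrays (symbols: replicates; bars: mean ± SD, n = 3 pools). Every panel spans 2 log2 units around its own middle, so heights can be compared between panels but levels cannot. The calcitriol arrays lie above all vehicle arrays for *S100A9* and below all vehicle arrays for *S100A10*.

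*S100A9*, which encodes a subunit of calprotectin, measured 9.02, 8.54 and 8.77 in the vehicle pools, in the order of their replicate numbers. In the calcitriol pools it measured 9.82, 9.37 and 9.54. The lowest calcitriol array was therefore above the highest vehicle array, and the 3 values within each group lay within about the same distance of each other. The means were 8.78 ± 0.24 and 9.58 ± 0.22 (SD, n = 3 pools each), a log2 difference of 0.80 (standard error 0.20, unadjusted p = 0.00376, adjusted p = 0.915 from limma). This is a 1.74-fold higher signal, with a 95% interval of 1.26 to 2.40. Calcitriol above vehicle on every array was found for 1 of the 10 genes, against 5.16% of all features and 2.49% of protein-coding genes. Among the 8229 protein-coding genes above the negative controls 1.11% showed it and 0.109% had a difference at least as large as that of *S100A9*. An exact permutation test of 3 arrays against 3 can reach no p below 0.1, the value obtained for *S100A9* (two-sided).

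*S100A8*, the other subunit of calprotectin, had 6.89, 6.42 and 7.01 on the vehicle arrays and 6.93, 7.27 and 7.74 on the calcitriol arrays. Here the groups overlapped, because calcitriol replicate 1 lay between the vehicle arrays. The difference was 0.54 (standard error 0.26, unadjusted p = 0.0659, adjusted p = 0.915 from limma), with an interval of -0.044 to 1.13. The call of *S100A8* turned on single arrays and on the scaling. Without calcitriol replicate 1 the difference was 0.73 (unadjusted p = 0.0243 from limma), and without calcitriol replicate 3 it was 0.33 (unadjusted p = 0.231). With the arrays quantile-normalized again it was 0.60 (unadjusted p = 0.0352). The signal of *S100A9* minus that of *S100A8* was 2.13, 2.12 and 1.75 on the vehicle arrays and 2.89, 2.10 and 1.79 on the calcitriol arrays, so a difference in response between the partners was not detected (0.26, interval -0.39 to 0.91, exact permutation p = 0.6, two-sided). The interval is wide enough to include both an equal response and a gap larger than the difference of *S100A9* itself. The vehicle arrays of *S100A8* also lay close to the cutoff of 6.32. Background may therefore make up part of its signal and shrink its difference, which was not tested. *S100A7*, or psoriasin, an antimicrobial protein of keratinocytes, lay below the negative controls with 4.80 ± 0.14 and 4.93 ± 0.21 (SD, n = 3 pools). Its sequence is close to that of *S100A7A*, so the features of both may share signal.

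In tissue, calprotectin is also a product of granulocytes and macrophages, and the marker genes of such cells were therefore examined in this cell line. Of 8 myeloid markers 7 lay below the negative controls (*PTPRC*, *CD14*, *LYZ*, *ITGAM*, *CSF3R*, *FCGR3B* and *MPO*), and only *CD68*, a lysosomal protein gene that other cells express too, lay above. The mean log2 signal over the 8 was 4.58 to 4.68 on the vehicle arrays and 4.56 to 4.88 on the calcitriol arrays. All 7 measured epithelial markers, among them *KRT5*, *KRT19* and *EPCAM*, lay above the negative controls with a mean of 15.84 to 16.09 in vehicle and 15.73 to 15.87 in calcitriol. Among the markers, *KRT18* was lower (-0.56, unadjusted p = 0.0438 from limma) and *CD68* had a difference of 0.46 (unadjusted p = 0.0610), and their part in the S100 differences was not tested.

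*S100A10*, also called p11, links annexin A2 and membrane channels and gathers plasminogen at the cell surface. It had signals of 19.35, 19.23 and 19.35 on the vehicle arrays and of 18.74, 19.20 and 18.84 on the calcitriol arrays. The groups did not overlap, although calcitriol replicate 2 lay only just under the lowest vehicle array and the calcitriol arrays were more spread than the vehicle arrays. The means were 19.31 ± 0.07 and 18.93 ± 0.24 (SD, n = 3 pools each). The log2 difference was -0.38 (standard error 0.18, unadjusted p = 0.0692, adjusted p = 0.915 from limma; interval -0.81 to 0.038), corresponding to a 1.30-fold higher signal in vehicle. Calcitriol below vehicle on every array was found for 1 of the 10 genes, against 5.55% of all features and 11.2% of protein-coding genes, or 15.5% of those above the negative controls. Without calcitriol replicate 2 the difference was -0.52 (unadjusted p = 0.0260 from limma), and a fit with a variance trend and robust estimation gave an unadjusted p = 0.0123.
A ceiling can shrink differences, so *S100A10* was set beside features of like brightness, a band chosen after its values were seen. The band held 41 protein-coding genes with a mean signal of at least 18, after 7 that reached the ceiling on any array were left out because they could not show a difference in full. A negative difference was found for 35 of the 41 (85.4%), and the median of the 41 was -0.065. The difference of *S100A10* was the lowest of the 41. In the same band 9 genes (22%) had all calcitriol arrays below all vehicle arrays.

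**Figure D2:**
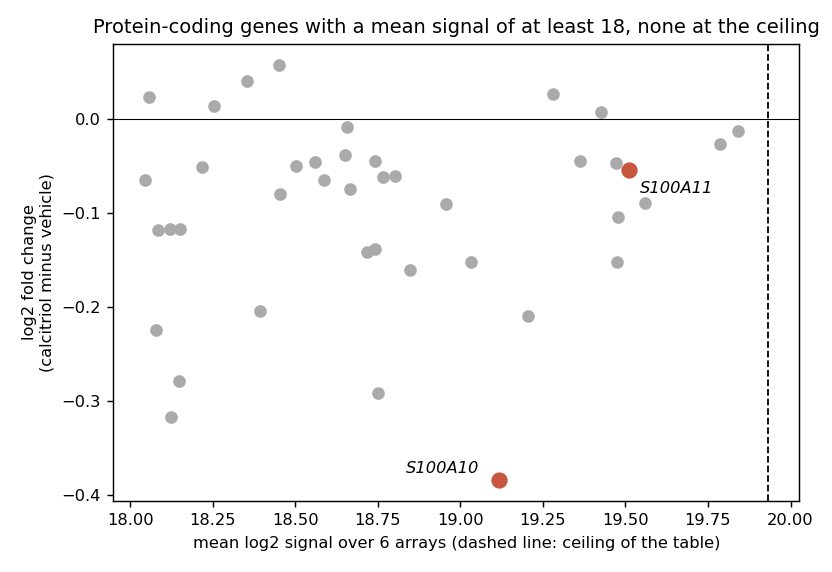
Log2 difference (calcitriol minus vehicle) against mean log2 signal for the 41 protein-coding genes with a mean signal of at least 18 and no array at the ceiling, each point a gene, with the ceiling of 19.93 as a dashed line. *S100A10* lies at -0.38, and *S100A11*, closer to the ceiling, lies at -0.054.

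*S100A11*, which binds annexin A1 and takes part in membrane repair, had 19.60, 19.51 and 19.51 in vehicle and 19.46, 19.52 and 19.48 in calcitriol. All 6 values lay within a narrow range just under the ceiling, and the groups overlapped. The difference was -0.054 (standard error 0.16, interval -0.42 to 0.31, unadjusted p = 0.741 from limma). The features of the processed pseudogenes *S100A11P1* and *S100A11P2*, chosen for mention after their values were seen, had differences of -0.25 and -0.072, and sequence shared with *S100A11* may add to their signal. The signal of *S100A10* minus that of *S100A11* was -0.25, -0.27 and -0.16 in vehicle and -0.72, -0.32 and -0.64 in calcitriol. These values did not overlap, with a difference of -0.33 (interval -0.74 to 0.078, exact permutation p = 0.1, two-sided, the smallest possible).
The difference of *S100A10* was negative without passing the test, so the contrast of *S100A9* with it is a description of the highest and the lowest difference among the 10 genes. The signal of *S100A9* minus that of *S100A10* was -10.33, -10.69 and -10.58 in vehicle and -8.93, -9.83 and -9.30 in calcitriol, a shift of 1.18 (interval 0.62 to 1.75, exact permutation p = 0.1, two-sided, the smallest possible). The 3 pairs of genes were picked after their values were seen, and none of the permutation tests can reach 0.05, with or without adjustment over the 3 pairs.

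*S100A2*, an S100 gene of basal keratinocytes, had 16.03, 15.97 and 15.62 in vehicle and 16.04, 15.94 and 16.06 in calcitriol. Its calcitriol arrays lay close together, while vehicle replicate 3 was low. The difference was 0.14 (standard error 0.18, interval -0.28 to 0.55, unadjusted p = 0.473 from limma), so a change of 1.5-fold in either direction lies outside the unadjusted interval. On the scale of the exogenous controls described further on, *S100A2* had 0.48 (unadjusted p = 0.0491 from limma), where 20.1% of all features were higher at an unadjusted p under 0.05. *S100A6*, or calcyclin, binds annexins and the calcyclin-binding protein encoded by *CACYBP*. It had 7.43, 6.80 and 7.11 in vehicle and 6.68, 6.88 and 6.87 in calcitriol. The difference was -0.30 (standard error 0.21, interval -0.77 to 0.17, unadjusted p = 0.180 from limma), and calcitriol replicates 2 and 3 lay inside the vehicle range.
The remaining 3 genes lay below the negative controls. They were *S100A4*, which encodes a binding partner of nonmuscle myosin linked to cell motility, *S100A14*, an epithelial member, and *S100P*, which lies on chromosome 4 rather than chromosome 1 and was first found in placenta. Their differences were 0.11, -0.085 and -0.22, each with overlapping groups. The widest spread was that of *S100P* in vehicle, with 5.09, 4.28 and 4.95, and without vehicle replicate 2 its difference was -0.47 (unadjusted p = 0.0452 from limma). In no other setting tried did *S100P* have an unadjusted p under 0.05.

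Over the 10 genes the median difference was 0.029, beside -0.0042 for all features, -0.093 for protein-coding genes and -0.16 for protein-coding genes above the negative controls. Positive and negative differences were equal in number, 5 and 5, while 50.7% of all features, 66.9% of protein-coding genes and 78% of those above the negative controls had a negative one. These figures include the 4 genes below the negative controls. Over the 6 genes above them the median difference was 0.041, with 3 positive and 3 negative. The signs of the 10 genes were 7 and 3 with the arrays centred on protein-coding genes, 6 and 4 by cyclic loess and 9 and 1 with centring on exogenous controls. Those exogenous controls, 8 features of added poly-A and hybridization controls, were themselves all lower on the calcitriol arrays (median -0.31). The most negative difference among them, -0.63, was that of the lys control, whose mean of 4.26 lay below the cutoff of 6.32. Centring on the 8 controls moves the median of all features to 0.34, while centring on protein-coding genes moves it to 0.14. *S100A9* had 1.14 and 0.94 on these scales, *S100A8* had 0.88 and 0.68, and *S100A10* had -0.042 and -0.24. The part of the controls in the differences was not tested.

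**Figure D3:**
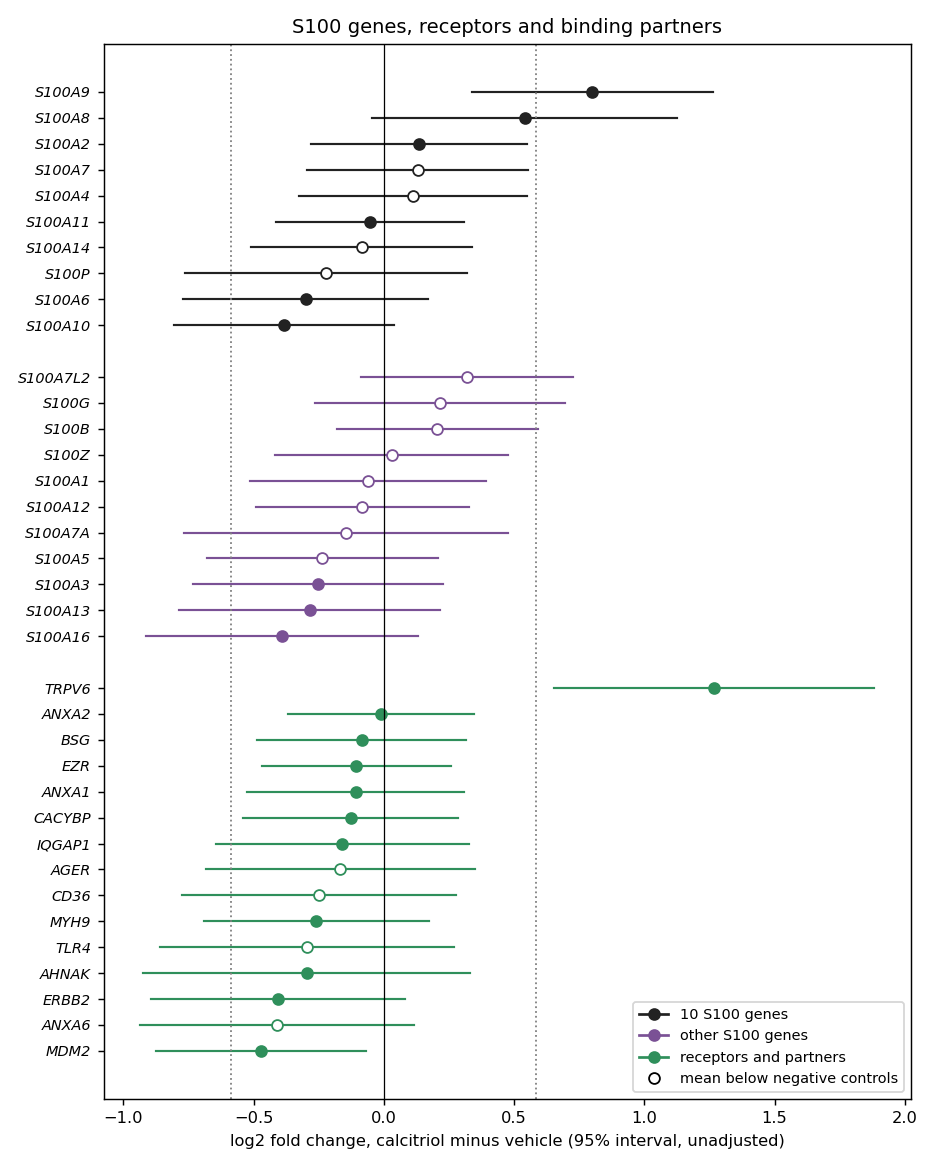
Log2 difference (calcitriol minus vehicle, points) with unadjusted 95% intervals from limma for the 10 S100 genes, 11 other S100 genes and 15 receptors and partners, with dotted lines at 1.5-fold and open points for means below the negative controls. The intervals of *S100A9*, *TRPV6* and *MDM2* lie to one side of 0.

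Elsewhere in the family, 0 of 11 other S100 genes had an unadjusted p under 0.05 in either direction, beside 2.58% of all features higher and 2.83% lower, so a count of 0 does not set them apart, and 3 of the 11 lay above the negative controls (*S100A3*, *S100A13* and *S100A16*). *S100A16*, a widely expressed member, had 12.81, 12.87 and 12.14 in vehicle and 12.07, 12.26 and 12.31 in calcitriol. The low vehicle replicate 3 overlapped the calcitriol arrays, and the difference was -0.39 (standard error 0.23, interval -0.91 to 0.13, unadjusted p = 0.124 from limma). Without that array it was -0.62 (unadjusted p = 0.0138 from limma). Of 18 other settings with a test, described further on, this was the only 1 with an unadjusted p under 0.05 for *S100A16*. Over the settings its difference ran from -0.62 to -0.048. *S100A13*, which takes part in the release of fibroblast growth factor, had a difference of -0.28 (standard error 0.22), which without calcitriol replicate 2 was -0.49 (unadjusted p = 0.0436 from limma). No other setting gave *S100A13* an unadjusted p under 0.05. Of the dim features with the smallest p, the pseudogene *S100A7L2* had 0.32 and *S100A5* had -0.24, both below the negative controls. *S100G*, which encodes calbindin-D9k, an intestinal calcium carrier under the control of vitamin D, was also below them, with 3.93 ± 0.26 in vehicle and 4.15 ± 0.24 in calcitriol (SD, n = 3 pools).
In RefSeq order along chromosome 1, *S100A10* and *S100A11* stand on one side of the genes of S100-fused type proteins and the other S100 genes stand on the far side. *S100A9* and *S100A8* are close neighbours with *S100A12* between them. *S100A12*, a further myeloid S100 gene, was below the negative controls (3.60 ± 0.07 and 3.52 ± 0.21), and it had a difference of -0.082. The fused genes, such as *FLG* for filaggrin and *HRNR* for hornerin, encode large proteins of the cornified layer that begin with an S100 domain. All 7 had means below the negative controls and 0 of 7 had an unadjusted p under 0.05, again beside 2.58% of all features higher and 2.83% lower. Those with the smallest p were *CRNN* (-0.33), *TCHHL1* (-0.36), *RPTN* (0.21) and *HRNR* (0.14), and *TCHHL1* had -0.58 (unadjusted p = 0.0160 from limma) without calcitriol replicate 1. *TCHHL1* had an unadjusted p under 0.05 in no other setting.

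**Figure D4:**
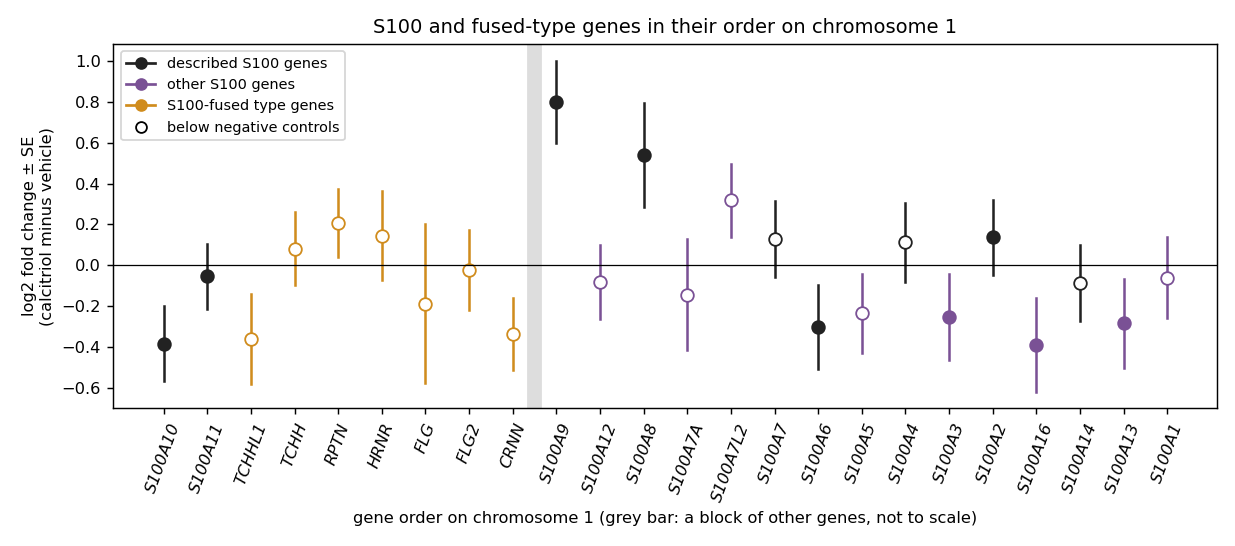
Log2 difference (calcitriol minus vehicle, ± SE of limma) of S100 and S100-fused type genes in their order on chromosome 1, spaced evenly and not to scale, with open points for means below the negative controls. The points of *S100A9* (0.80) and *S100A8* (0.54) stand above those of the nearest plotted genes, most of which are open. Between *CRNN* and *S100A9* lie 54 other genes that are not plotted (grey bar), so the genes next to *S100A9* on that side are not shown.

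The receptors and binding partners of these proteins were examined on the same arrays. Of 15 measured genes, 1 was higher and 1 lower at an unadjusted p under 0.05, against 2.58% of all features higher and 2.83% lower, or 0.762% and 5.68% of protein-coding genes. *TRPV6*, a calcium channel that the complex of S100A10 and annexin A2 brings to the membrane and a known vitamin D target, measured 7.45, 8.15 and 7.38 in vehicle and 8.95, 9.27 and 8.56 in calcitriol. It had a difference of 1.27 (standard error 0.27, unadjusted p = 0.00129, adjusted p = 0.915 from limma). Its calcitriol arrays all lay above its vehicle arrays. *MDM2*, a ubiquitin ligase and a partner of several S100 proteins, had 9.83 ± 0.17 in vehicle and 9.36 ± 0.12 in calcitriol (SD, n = 3 pools), a difference of -0.47 (standard error 0.18, unadjusted p = 0.0265, adjusted p = 0.915 from limma). This call was lost by quantile normalization (-0.34, unadjusted p = 0.0801), by cyclic loess (-0.35), by centring on protein-coding genes (-0.33), by centring on the exogenous controls (-0.13) and without vehicle replicate 2 (-0.40), vehicle replicate 3 (-0.45) or calcitriol replicate 1 (-0.41).
*ANXA2*, the annexin that binds S100A10, sat at the ceiling on every vehicle array, so its signal could not have shown a higher level and gives no measure of change. *ANXA1*, the partner of S100A11, had a difference of -0.11, *CACYBP* had -0.13, and *MYH9*, the myosin that S100A4 binds, had -0.26, none with an unadjusted p under 0.05. Of the receptors of secreted S100 proteins, *AGER*, *TLR4* and *CD36* lay below the negative controls. *BSG*, which encodes basigin, a receptor for S100A9, lay well above them with 17.53 ± 0.20 in vehicle and 17.44 ± 0.03 in calcitriol (SD, n = 3 pools), a difference of -0.086 (interval -0.49 to 0.32). *ERBB2* (-0.41) and *ANXA6* (-0.41) had the next smallest p-values, and the mean of *ANXA6* was below the negative controls. The array has 2 features for *ERBB2*, and the mean of both gave -0.26 (unadjusted p = 0.195 from limma). With centring on the exogenous controls *ERBB2* had -0.065. *ERBB2* had -0.57 (unadjusted p = 0.0297 from limma) without vehicle replicate 3, and *ANXA6* had -0.61 (unadjusted p = 0.0260) without calcitriol replicate 3. Neither gene had an unadjusted p under 0.05 in any other setting.

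The differences of the pair of calprotectin genes and of *S100A10* were recomputed under every other setting tried. *S100A9* kept an unadjusted p under 0.05 in all 18 settings that give a test, with differences of 0.68 to 1.14. Its adjusted p from limma ran from 0.212 to 0.994 over them. The settings draw on the same 6 arrays, so they are not independent of each other. *S100A8* had one in 7 of 18 and *S100A10* in 2 of 18.

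**Figure D5:**
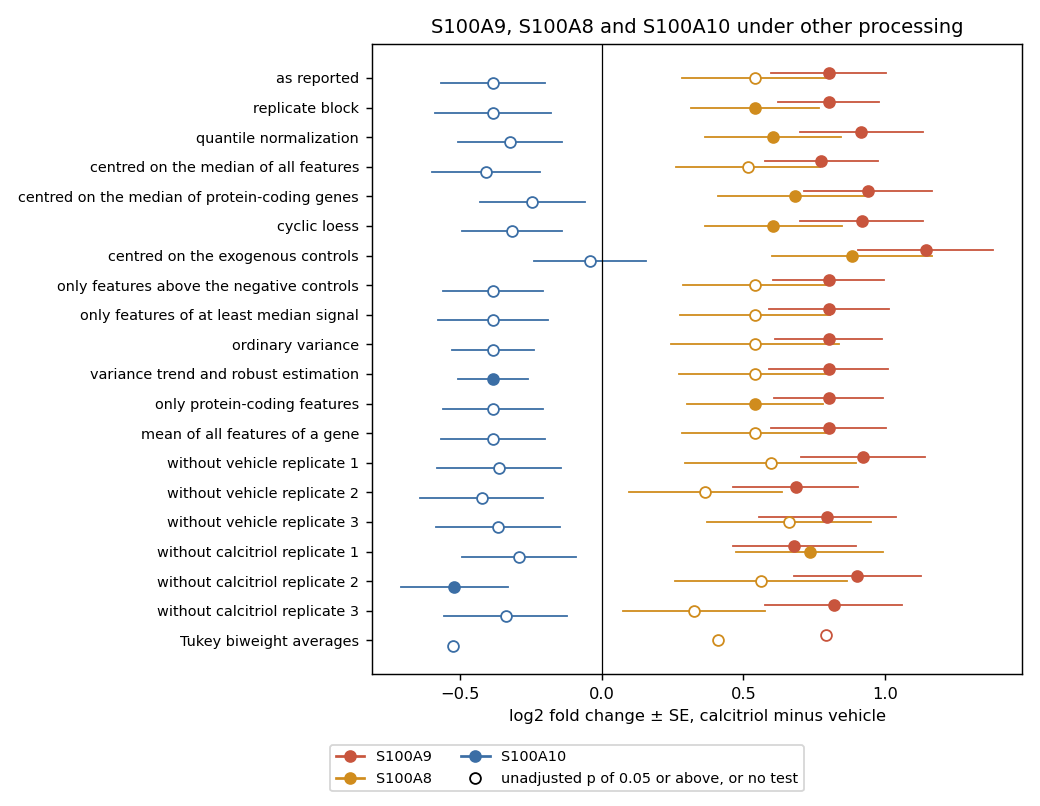
Log2 difference ± SE (calcitriol minus vehicle) of *S100A9*, *S100A8* and *S100A10* as reported and under each other setting, with filled points for an unadjusted p under 0.05. *S100A9* lies between 0.68 and 1.14 throughout, while *S100A10* lies at -0.042 when the arrays are centred on the exogenous controls.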

How the data were processed

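RNA pools of vehicle-treated and calcitriol-treated CaSki cells (3 each) were hybridized to Clariom D arrays. Transcriptome Analysis Console served the authors for background correction and normalization, and the deposited values are log2 signals, 1 per feature and array. Which algorithm and annotation build were used is not stated in the sources read here. The values were used as deposited.

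Genes were named through the platform table (36176 features with exactly 1 symbol, 1119 with several), with the brightest feature for each gene and biotypes from RefSeq (GRCh38.p14). Calcitriol was compared with vehicle over all 138745 features with limma, version 3.58.1, in R 4.3.3, using moderated variances and two-sided tests, and intervals are 95% and unadjusted. Calls used an unadjusted p under 0.05, alone or with a fold of at least 1.5. The number of arrays, 3 per group, limits the precision. The procedure was tested on simulated data.

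The members and gene lists were chosen with earlier results of these data known. Named genes are the 10 members, list genes above the negative controls with an unadjusted p under 0.05, and the 4 other S100 genes and 4 partners with the smallest p. Others were named for their role or with their values known. Marker lists of fibroblasts, endothelium and melanocytes had 1 of 4, 0 of 3 and 0 of 2 measured genes above the negative controls. Alternatives were other scalings, filters, variance models and thresholds, Tukey biweight averages, the omission of single arrays and a block for the replicate number.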

Additional observations from a re-analysis of the deposited data

How the results depend on the processing

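Of the 10 S100 genes, 1 was higher and 0 were lower at an unadjusted p under 0.05. The number higher was 2 with a replicate block, by quantile normalization, by cyclic loess, with centring on protein-coding genes and with only protein-coding features, and 4 with centring on the exogenous controls, where *S100A2* and *S100A7* joined *S100A9* and *S100A8*. The share of all features higher at that threshold was 2.58% as reported, 2.72% with the block, 2.56% by quantile normalization, 2.59% by cyclic loess, 6.52% with centring on protein-coding genes and 20.1% with centring on the exogenous controls, and 1.14% of the features fitted with only protein-coding ones. With single arrays omitted, 1 to 2 genes were higher (2 without calcitriol replicate 1, with *S100A8*) and 0 to 1 lower (1 without vehicle replicate 2, *S100P*, and 1 without calcitriol replicate 2, *S100A10*), and a variance trend with robust estimation gave 1 lower (*S100A10*). Without calcitriol replicate 1, 2.56% of all features were higher. The share of all features lower was 2.83% as reported, 3.02% without vehicle replicate 2, 3.09% without calcitriol replicate 2 and 2.87% with the trend and robust estimation. The number past an adjusted p of 0.05 was 0 in every setting. The median difference over the genes was 0.37 with centring on the exogenous controls, 0.168 with centring on protein-coding genes and -0.034 (without vehicle replicate 3) to 0.088 (without vehicle replicate 1) with single arrays omitted, and it was also negative without calcitriol replicate 2 (-0.0034). Signs turned, with no unadjusted p under 0.05, for *S100A11* (0.0855) and *S100A14* (0.0545) with centring on protein-coding genes and for *S100A11* by cyclic loess (0.00962). With centring on the exogenous controls they turned for *S100A6* (0.0418), *S100A11* (0.29), *S100A14* (0.26), *S100P* (0.12), *S100A5* (0.11), *S100A13* (0.0576) and *CRNN* (0.00753). Omitting single arrays moved *HRNR* between -0.0424 and 0.301, negative without vehicle replicate 3. The cause was not tested, beyond the shift of all features that each scaling makes. Deviations of arrays with the same replicate number correlated at 0.048, 0.15 and 0.13, so the numbers were not taken as pairs, although each array correlated best with its own number. The block added *S100A8* (unadjusted p = 0.0491) and changed no other call among the 10. Features near the negative controls or the ceiling limit what can be read.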

Other observations

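*S100PBP*, which encodes a nuclear protein that binds S100P, was noted after its values were seen. It had signals of 8.54, 8.68 and 9.27 on the vehicle arrays and 8.19, 8.37 and 8.28 on the calcitriol arrays. Its groups did not overlap, and the difference was -0.55 (standard error 0.22, unadjusted p = 0.0358 from limma). Calcitriol below vehicle on every array was found for 5.55% of all features and 15.5% of protein-coding genes above the negative controls. At an unadjusted p under 0.05, 2.83% of all features and 5.68% of protein-coding genes were lower. The difference of *S100PBP* was not recomputed under the other settings. *S100P* itself lay below the negative controls in both groups.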
